A study of Mus musculus with 12 samples.

Results

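Hippocampal libraries labelled Kcnip3 KO, from Kcnip3 knockout mice, were compared with libraries labelled wild type (WT), 2 groups that by their labels do not carry the 5xFAD transgenes. The comparison used 6 of the 12 libraries of the series, the 3 labelled Kcnip3 KO and the 3 labelled WT, and took in every gene that passed a filter on low counts, 15905 of the 55385 genes in the table of read counts. All were RNA-seq libraries from freshly dissected hippocampus of adult mice, prepared with the TruSeq mRNA kit, and the labels add that the opposite hemisphere was used for proteomics. The labels give the knockout as Kcnip3 -/-, with no cell-type-specific driver named, and give neither the design of the allele nor the genetic background, age or sex. The other 6 libraries, 3 labelled 5xFAD and 3 labelled Kcnip3 KO-5xFAD, carry the 5xFAD transgenes by their labels. These transgenes include mutant human APP and are driven in neurons by Thy1 sequences. These 6 libraries served here to estimate the spread between libraries and as a second pair of groups that differ by the same knockout and share no library with the first. The labels do not say whether the 3 libraries of a group came from separate animals, so p-values measure the spread between these libraries only.

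Kcnip3 encodes KChIP3, a small calcium sensor of the EF-hand family that is also called DREAM and calsenilin. Near the membrane it binds Kv4 potassium channels, which carry the transient outward current of neuronal dendrites. In the nucleus it is known as a repressor that sits on downstream regulatory elements, short sites with a GTCA core, and leaves them when calcium rises. Its reported targets include Pdyn, Fos, Nr4a1 and Bdnf, and in the hippocampus loss of DREAM has been studied for its effects on synaptic plasticity and memory.

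The 6 libraries held 8118037 to 9403798 counts, 22873 to 23330 genes with at least 1 count and 3.84% to 5.10% mitochondrial counts. Levels are given as counts in each 1000000 (CPM) after TMM scaling, which adjusts library sizes for their composition, and a count of 3 in a library corresponded to 0.319 to 0.370 CPM. Kcnip3 itself stood at 160, 158 and 162 CPM in WT 1, 2 and 3, and at 71.4, 63.4 and 125 CPM in Kcnip3 KO 1, 2 and 3. All 3 knockout libraries lay below all 3 WT libraries, but the library labelled Kcnip3 KO 3 stood much closer to WT than the others did. The log2 fold change was -0.88 ± 0.20 (SE), with an edgeR adjusted p of 0.449 in the fit of all 12 libraries, where DESeq2 gave an adjusted p of 0.0134, and it was -1.25 with an edgeR adjusted p of 0.000365 without Kcnip3 KO 3. Since the part of the gene that was deleted is not given, counts on the remaining exons cannot check the label.

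Groups are named by their labels throughout, but one WT library went against its label. WT 3 had Thy1 at 2277 CPM, against 747 and 887 CPM in the other WT libraries, and in it Trem2 stood at 70.1 CPM and Cst7 at 26.5 CPM, against at most 24.7 and 0.319 CPM in the other 5 libraries. In the 3 libraries labelled 5xFAD these genes stood at 2870 to 4236, 154 to 251 and 69.0 to 121 CPM. Thy1 marks the transgenes here because they are driven by its sequences, and Trem2 and Cst7 are genes of plaque-associated microglia. In the opposite way the library labelled Kcnip3 KO-5xFAD 2 had Thy1 at 926 CPM, Trem2 at 26.2 CPM and Cst7 at 1.00 CPM, nearer to the other WT libraries than to the 5xFAD libraries, while the other 5 libraries labelled with the transgenes had Thy1 at 2592 to 4236 CPM and Trem2 at 128 to 251 CPM. App, whose human form is one of the transgenes, stood at 1186, 1293 and 1260 CPM and at 1272, 1258 and 1248 CPM in the WT and Kcnip3 KO libraries, and Gfap, a marker of astrocytes, at 427, 375 and 896 CPM and at 341, 589 and 839 CPM. WT 3 also held little RNA of the choroid plexus, with Ttr, its main secreted protein, at 83.5 CPM against 2890 to 4394 CPM in the other 5 libraries. In such bulk samples fewer cells of a type and less RNA per cell cannot be told apart. Libraries were also compared by the genes that stood over 2-fold above the highest, or under 1/2 of the lowest, of the other 5 at 5 CPM or more. Kcnip3 KO 3 had 58 genes above and 12 below, WT 3 had 16 above and 32 below, Kcnip3 KO 2 had 22 above and 1 below, and the other 3 libraries had 1 to 6 in all. In Kcnip3 KO 3 the genes above included Nptx2 (342 against at most 76.9 CPM), Npy (178 against at most 57.6 CPM), Pcdh8 (168 against at most 50.6 CPM) and Bdnf (62.8 against at most 28.5 CPM). In Kcnip3 KO 2 they included Scn4b (138 against at most 61.1 CPM), Syt2 (119 against at most 58.1 CPM) and the dopamine receptor Drd2 (12.2 against at most 5.29 CPM). What sets these libraries apart was not tested.

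Across the transcriptome 8 of the 15905 tested genes, 0.0503%, passed an adjusted p of 0.05 (edgeR's quasi-likelihood test, Benjamini-Hochberg adjustment), 4 higher and 4 lower in Kcnip3 KO, 0.0251% each way. A total of 718 genes, 4.51%, had an unadjusted p under 0.05, and in 1505 genes, 9.46%, the 3 libraries of one group all lay above the 3 of the other. The 4 lower genes and 1 of the 4 higher genes lie on chromosome 2 within 10 Mb of Kcnip3, which sits at chr2:127456498-127522094 (GRCm38, minus strand). The other 3 higher genes are on chromosomes 18 and 19, and each is a copy of a gene on chromosome 2 in that same interval.

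Among the lower genes, Ivd encodes isovaleryl-CoA dehydrogenase, a mitochondrial enzyme of leucine breakdown, and lies at chr2:118861954-118882909, 8.57 Mb from Kcnip3. Its level was 125, 141 and 124 CPM across the WT libraries, against 72.8, 83.6 and 58.9 CPM with the knockout, so every knockout library lay below every WT library. The log2 fold change was -0.86 ± 0.12 with an edgeR adjusted p of 0.00939. Ivd was the least stable of the 8, since its adjusted p rose to 0.0595 without WT 3 and Kcnip3 KO-5xFAD 2. Haus2, a subunit of the augmin complex that nucleates microtubules on spindles and in neurons, lies at chr2:120609383-120621560. It stood at 17.7, 18.2 and 19.5 CPM across the WT libraries, against 7.74, 8.82 and 8.52 CPM with the knockout, a log2 fold change of -1.14 ± 0.14 (edgeR adjusted p 0.00251). The highest knockout library stood below the lowest WT library.

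Mfap1b and Eif3j1 complete the lower genes. Mfap1b, 1 of a pair of genes for a spliceosome-associated protein, lies at chr2:121460235-121474067 and stood at 14.9, 15 and 16.4 CPM in the WT group, and with the knockout the level was 5.96, 4.23 and 6.44 CPM (log2 fold change -1.47 ± 0.18, edgeR adjusted p 0.00218). Eif3j1, for a subunit of the translation initiation factor eIF3, lies at chr2:122028546-122056598 and stood at 28.6, 22.3 and 30.3 CPM across the WT libraries, against 9.93, 10.4 and 8.86 CPM with the knockout (log2 fold change -1.48 ± 0.15, edgeR adjusted p 0.000382). In both genes the groups were far apart relative to their spread.

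Pla2g4e was the higher gene on chromosome 2, at chr2:120166412-120245335, 7.21 Mb from Kcnip3. It encodes the epsilon form of cytosolic phospholipase A2, a calcium-dependent enzyme that makes N-acylated phospholipids, the precursors of anandamide. Its level was 10.6, 14.2 and 11.4 CPM across the WT libraries, against 59.3, 62.2 and 43.6 CPM with the knockout, a ratio of means of 4.55 and a log2 fold change of 2.19 ± 0.17 (edgeR adjusted p 2.34e-05). All 3 knockout libraries lay well above the WT libraries.

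Eif3j2 on chromosome 18 had the smallest p of all genes. It stood at 0.106, 0.213 and 0.104 CPM in WT, 4 counts in all, and at 11.5, 8.58 and 11.7 CPM in Kcnip3 KO, with 283 counts (log2 fold change 6.10 ± 0.40, edgeR adjusted p 4.17e-06). Gm3650, an unprocessed pseudogene that lies next to Eif3j2 on the opposite strand, had 2 counts in all WT libraries and 169 counts in Kcnip3 KO, with 5.96, 5.92 and 7.25 CPM. The ratio of its summed counts was 90.4, with a 95% exact interval of 24.6 to 752 that covers counting error only, and its edgeR adjusted p was 7.21e-05. Pcna-ps2, a processed pseudogene at chr19:9283380-9284160, stood at 0.957, 0.532 and 0.836 CPM in the WT group, and with the knockout the level was 9.31, 7.25 and 10.1 CPM (log2 fold change 3.50 ± 0.39, edgeR adjusted p 0.00102). All 3 genes stood below 1 CPM in every WT library and above 5 CPM in every knockout library.

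Kcnip3 KO 3, the library with the high Kcnip3 level, lay with the other knockout libraries for all 8 genes, and WT 3 lay with the other WT libraries. Without WT 3 and Kcnip3 KO-5xFAD 2, 7 of 16076 genes were called, 0.0435%, all of them among the 8, and Ivd was the one lost. Without Kcnip3 KO 2 the lower genes numbered 9, and without Kcnip3 KO-5xFAD 2 they numbered 7. In the transgenic background 7 of the 8 were also called between Kcnip3 KO-5xFAD and 5xFAD, in the same direction, among 11 genes called there, 0.0692% of those tested, a count that was 6 without 5xFAD 3 and 6 without Kcnip3 KO-5xFAD 3. The exception was Haus2, with a log2 fold change of -0.75 ± 0.14 and an edgeR adjusted p of 0.138 there, and a p of 0.0716 for the difference between the backgrounds. For Pla2g4e the 5xFAD libraries stood at 9.14, 12.9 and 13.1 CPM and the Kcnip3 KO-5xFAD libraries at 47.1, 42.6 and 50.1 CPM, close to the values without the transgenes. A test of whether the effect of the knockout differed between the backgrounds (the interaction) called 0 genes with edgeR, with 836 genes, 5.26%, at an unadjusted p under 0.05, and 3 genes with DESeq2. It called 4 genes without 5xFAD 1, 3 without Kcnip3 KO 2 and 1 without each of Kcnip3 KO 1, Kcnip3 KO-5xFAD 2 and Kcnip3 KO-5xFAD 3.

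**Figure D1:**
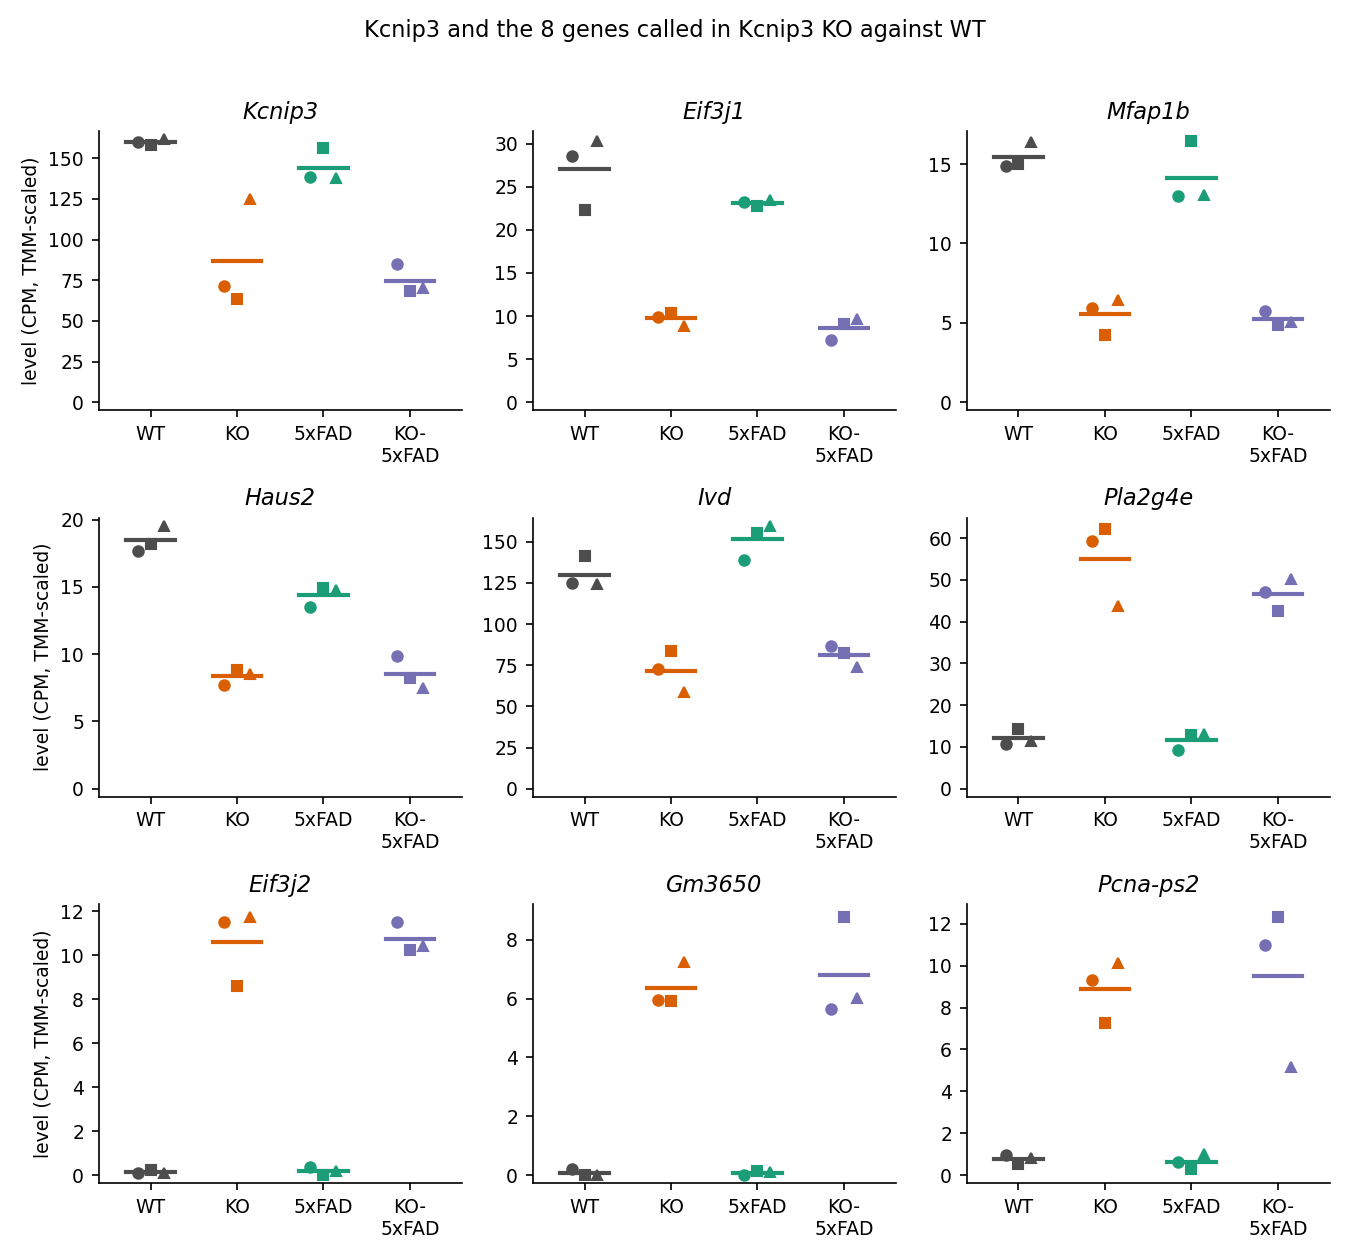
Levels in CPM after TMM scaling, on linear axes, of Kcnip3 and the 8 called genes in the 12 libraries, with 3 libraries a group (circles, squares and triangles are replicates 1, 2 and 3) and a line at each group's mean. For the 8 called genes every Kcnip3 KO library lies apart from every WT library, and the 2 transgenic groups differ in the same direction. Kcnip3 KO 3 stands at 125 CPM for Kcnip3, above the other knockout libraries.

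Copies of a gene share sequence, and a read from such a stretch can be counted for either, so the called genes were compared with all annotated transcripts by their 31-base words. Of the 2349 distinct words of Eif3j2, 94.0% also occur in Eif3j1 on the same strand. Of the 717 words of Gm3650, 95.7% occur in Spg11, the gene next to Eif3j1 on chromosome 2, and 80.1% on the opposite strand of Eif3j1. For Pcna-ps2, 75.2% of the words occur in Pcna, which lies 4.73 Mb from Kcnip3 on chromosome 2. Mfap1b shared 66.4% of its words with its neighbour Mfap1a, and their coding sequences of 1320 bases are identical. Haus2, Ivd and Pla2g4e have words of their own for 91.3%, 98.1% and 97.4% of their length. The levels of the first 5 genes are therefore uncertain, because it is not stated how reads matching several places were counted.

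The pair of Pcna and Pcna-ps2 shows how little separates such copies. Over 781 aligned bases they differ at 6, which is 99.2% identity. The following 60 bases lie inside the coding sequence of Pcna, the sliding clamp of DNA replication, and do not include its start. They are the first aligned stretch of that length within an exon with the most differences, 2, which are in capitals (GRCm38, chr2:132252860-132252919 on the minus strand and chr19:9283496-9283555 on the plus strand).
Pcna: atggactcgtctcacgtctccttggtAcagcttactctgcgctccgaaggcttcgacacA
Pcna-ps2: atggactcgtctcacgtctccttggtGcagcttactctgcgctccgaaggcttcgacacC

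Sums over a gene and its copy do not change with how reads were divided between that pair, but they still depend on whether reads matching both were dropped and on other genes that share the sequence. Eif3j1, for example, shares 16.6% of its words with Spg11 and 9.90% with Gm3650, both on the opposite strand. Eif3j1 and Eif3j2 together gave 28.7, 22.5 and 30.4 CPM across the WT libraries, against 21.4, 19 and 20.6 CPM with the knockout, so that the groups still did not overlap, but the ratio of knockout to WT means was 0.747, against 0.359 for Eif3j1 alone. Pcna and Pcna-ps2 together gave 46.7, 41.7 and 46.2 CPM across the WT libraries, against 37.5, 36.1 and 41.3 CPM with the knockout, a ratio of 0.855. Pcna alone stood at 45.7, 41.2 and 45.3 CPM and at 28.2, 28.9 and 31.2 CPM (log2 fold change -0.58 ± 0.10, edgeR adjusted p 0.0849, DESeq2 adjusted p 0.00314). Spg11 and Gm3650 together were higher in the knockout, with 16.5 to 21.6 CPM against 10.6 to 13 CPM, while Spg11 alone gave 9.21 to 15.7 CPM against 10.4 to 13 CPM. Mfap1a and Mfap1b together gave 28.9 to 34.5 CPM across WT libraries, against 21.1 to 23.2 CPM with the knockout. Mfap1a alone had a log2 fold change of 0.04 ± 0.14.

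The concentration of differences around Kcnip3 went beyond the called genes. Within 10 Mb of it 214 genes were tested, Kcnip3 included, of which 33 or 15.4% had an unadjusted p under 0.05, against 4.24% of the 14662 genes on other chromosomes. The groups did not overlap in 20.1% of the 214, against 9.22% on other chromosomes. In 23 of them, 10.8%, the groups were apart in the same direction in both backgrounds and in 0 in opposite directions. Over all genes tested that share was 0.962%, and on the other chromosomes 118 genes were apart in the same direction and 53 in opposite directions. Of the 23 genes, Kcnip3 included, 15 were lower and 8 higher in the knockout. They were not spread evenly on both sides of the gene, with 18 towards the start of the chromosome and 4 on the other side. Nearer the gene, within 5 Mb, 12 of 110 genes had an unadjusted p under 0.05 and 0 were called. The densest stretch lay 0 to 10 Mb towards the start of the chromosome, with 27 of 125 genes (21.6%) at an unadjusted p under 0.05, and in the 10 Mb beyond it 1 of 34 genes was.

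Other genes of this interval were not called by edgeR in the fit of 12 libraries, though DESeq2 called some of them. Bub1b, a kinase of the spindle checkpoint, stood at 2.55, 1.60 and 2.19 CPM in the WT group, and with the knockout the level was 0, 0.242 and 0 CPM, where it had 2 counts in all. The ratio of WT to knockout counts was 28, with a 95% exact interval of 7.43 to 237 for counting error, and the adjusted p was 0.0838 with edgeR and 0.0253 with DESeq2. Between the transgenic groups Bub1b was called, at 5.08, 2.13 and 2.99 CPM with the transgenes alone, against 0.111, 0 and 0.368 CPM with the knockout as well (edgeR adjusted p 0.0246). Mapkbp1, a scaffold of JNK signalling, stood at 58.4, 55.6 and 58.8 CPM across the WT libraries, against 83.5, 83.0 and 81.4 CPM with the knockout (log2 fold change 0.52 ± 0.12, edgeR adjusted p 0.449, DESeq2 adjusted p 0.0443). Rpap1, which works with RNA polymerase II, stood at 29.2 to 34.2 CPM across WT libraries, against 41.3 to 42.5 CPM with the knockout, and at 30.3 to 32.7 CPM and 39.8 to 40.4 CPM in the transgenic groups. Ankrd63 went another way, with 21.1, 24.8 and 35.6 CPM across the WT libraries, against 17.0, 14.3 and 15.5 CPM with the knockout, but with 17.1 to 21.3 CPM in 5xFAD and 18.2 to 24.5 CPM in Kcnip3 KO-5xFAD. The differences in Bub1b and Rpap1 had the same sign with and without the transgenes, and that in Ankrd63 did not (unadjusted interaction p 0.00146, edgeR, adjusted 0.853). Mapkbp1, apart without the transgenes, was not among the 23 genes apart in the same direction in both backgrounds.

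**Figure D2:**
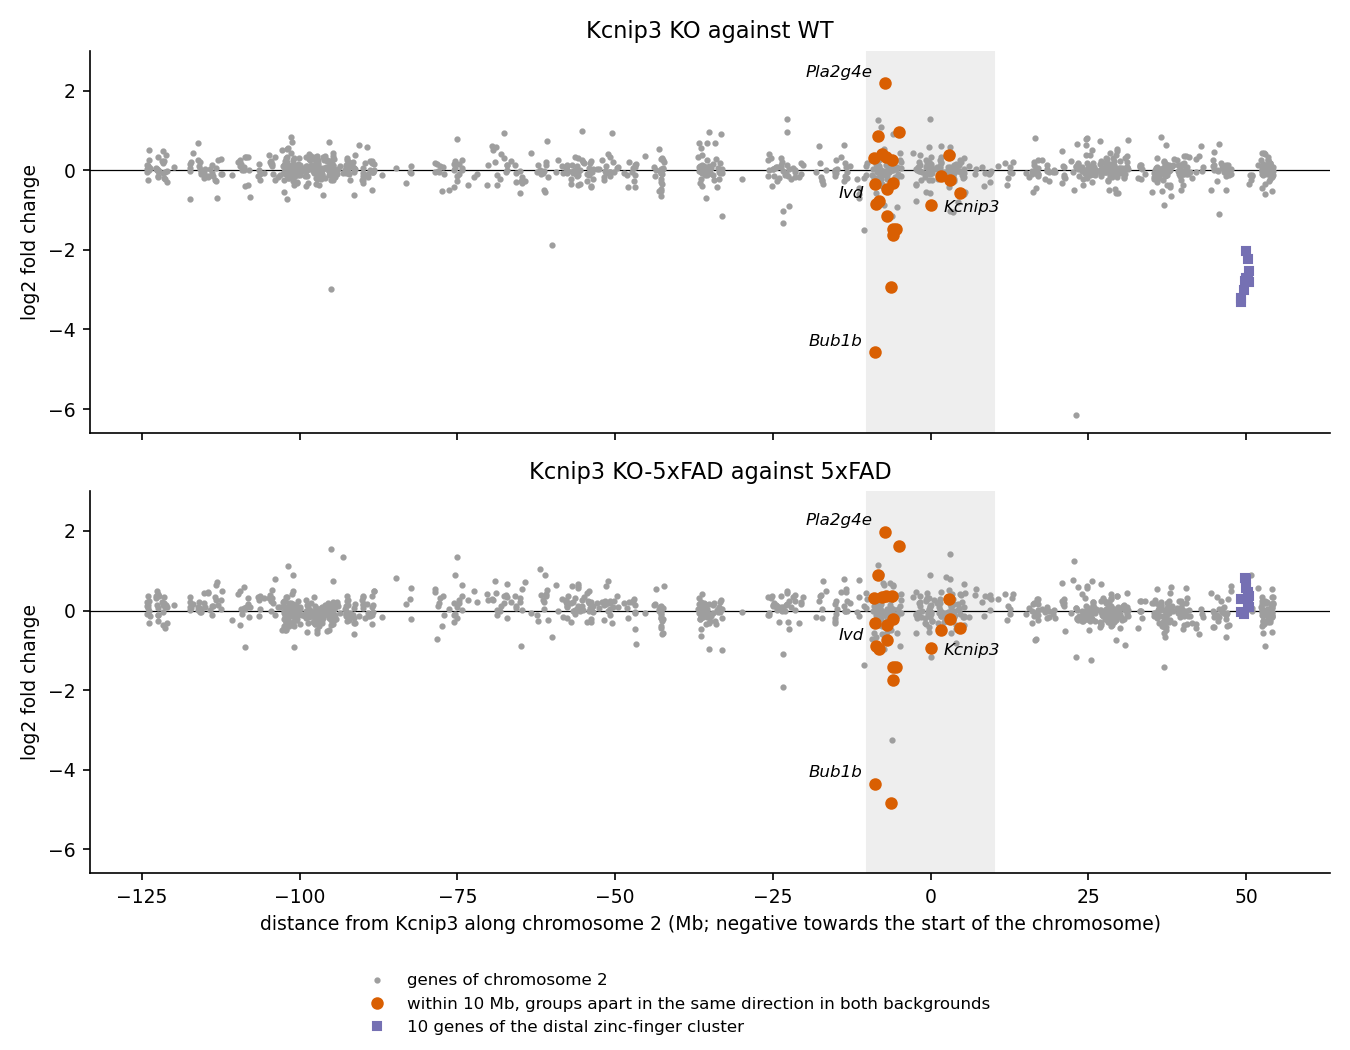
Log2 fold changes of the tested genes of chromosome 2 against their distance from Kcnip3 in Mb, for Kcnip3 KO against WT (top) and Kcnip3 KO-5xFAD against 5xFAD (bottom), 3 libraries a group. The shaded band marks 10 Mb on each side. The 23 genes in orange, apart in the same direction in both panels, lie mostly on the side towards the start of the chromosome, and the 10 zinc-finger genes in purple are low in the top panel only.

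A second group of lower values lay far from Kcnip3 on the same chromosome. It is a cluster of genes for C2H2 zinc-finger proteins, a class of DNA-binding proteins that includes many repressors of repeated sequence, and spans chr2:176708328-178034022, at least 49.2 Mb from Kcnip3. The 10 genes named here are Gm14295, Gm14305, Gm14410, Gm14418, Gm14403, Gm14322, Gm14325, Gm14326, Zfp970 and Zfp971, and they were chosen as a group after their values were seen. Their summed level was 31.6, 28.5 and 34.8 CPM across the WT libraries, against 0.732, 12.8 and 0.575 CPM in Kcnip3 KO 1, 2 and 3. Kcnip3 KO 1 and 3 had almost none, and Kcnip3 KO 2 had a level between theirs and that of WT. Gm14305, for example, stood at 6.17, 5.64 and 7.83 CPM in the WT group, and with the knockout the level was 0, 2.17 and 0 CPM (log2 fold change -3.22 ± 0.81, edgeR adjusted p 0.648). None of the 10 was called by edgeR, where their unadjusted p ranged from 0.000666 to 0.0170. Zfp931, the next tested gene beyond Zfp971, was not low in this way and had overlapping groups (log2 fold change -0.35 ± 0.29). DESeq2 called Gm14295 (adjusted p 0.0121), Gm14410 (0.0106) and Gm14325 (0.0496). Without Kcnip3 KO 2 edgeR called 5 of the 10, which were Gm14305 (adjusted p 0.00234), Gm14295 (0.0162), Gm14410 (0.00968), Gm14325 (0.00197) and Gm14326 (0.00197).

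In the transgenic groups the cluster did not follow the knockout. Its sum was 12.2, 26.8 and 28.4 CPM in 5xFAD 1, 2 and 3, against 16.7, 31.4 and 33.4 CPM in Kcnip3 KO-5xFAD 1, 2 and 3. There replicate 1 of each group was low and the others were close to WT levels, so that intermediate levels occurred with and without the knockout. For Gm14305 the interaction had an unadjusted edgeR p of 0.00670. These genes share much of their sequence, with 57.0% to 94.9% of the 31-base words of each found in other genes, so the level of each is uncertain. Part of that sequence lies in genes outside the 10, such as Gm14434, which holds 88.6% of the words of Gm14305, so the sum is uncertain as well.

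**Figure D3:**
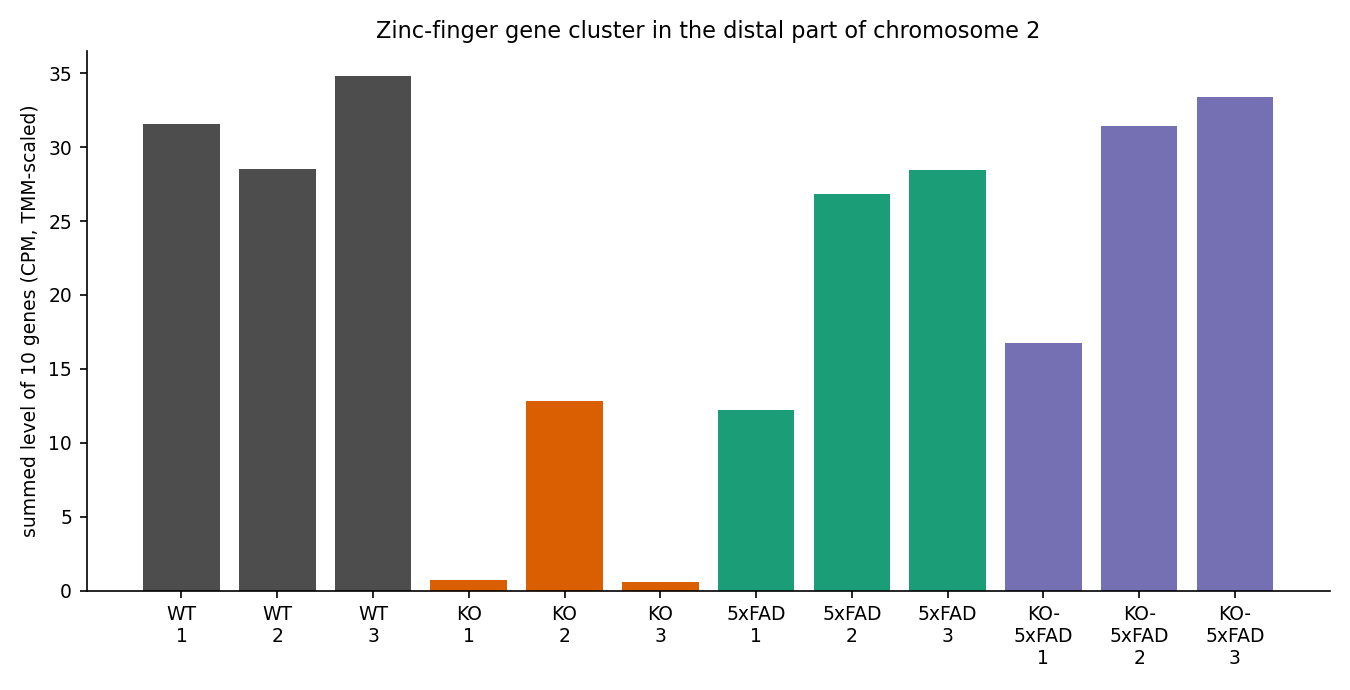
Summed level in CPM after TMM scaling of 10 zinc-finger genes of distal chromosome 2 in each of the 12 libraries, 1 bar a library, coloured by group, on a linear axis from 0. The bars of Kcnip3 KO 1 and 3 are at 0.732 and 0.575 CPM, Kcnip3 KO 2 and replicate 1 of both transgenic groups are between 12.2 and 16.7 CPM, and the other 7 libraries lie between 26.8 and 34.8 CPM.

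Immediate early genes were lower in the knockout without the transgenes, though the call depended on how the spread was estimated. These genes are switched on within minutes of neuronal firing and calcium entry and encode transcription factors and brakes on signalling. Fos stood at 49.0, 54.2 and 36.5 CPM across the WT libraries, against 13.6, 7.97 and 15.5 CPM with the knockout. Nr4a1, an orphan nuclear receptor, stood at 181, 211 and 158 CPM across the WT libraries, against 86.4, 61.9 and 70.0 CPM with the knockout. In both genes the highest knockout library was under the lowest WT library. Npas4, a factor that neurons induce on calcium entry, stood at 59.7, 65.1 and 33.9 CPM in the WT group, and with the knockout the level was 16.9, 12.9 and 15.3 CPM. Dusp1, a phosphatase that turns off MAP kinases, stood at 54.1, 68.7 and 44.1 CPM across the WT libraries, against 27.6, 19.8 and 25.1 CPM with the knockout. Again no knockout library reached the lowest WT library.

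In the fit of all 12 libraries none of these was called by edgeR, with adjusted p of 0.458 for Fos, 0.596 for Nr4a1, 0.775 for Npas4 and 0.449 for Dusp1. In a fit of the 6 libraries alone 15 of 15321 genes passed, 5 higher (0.0326%) and 10 lower (0.0653%). Without Kcnip3 KO 3 the higher genes of that fit numbered 10, without Kcnip3 KO 2 the lower ones numbered 16, and without WT 1 or WT 2 the lower ones numbered 3. All 8 genes above were among the 15, and the other lower ones were Fos, Nr4a1, Npas4, Dusp1, B2m and Bub1b. There the edgeR adjusted p was 0.0226 for Fos (log2 fold change -1.91 ± 0.24), 0.00387 for Nr4a1 (-1.33 ± 0.15), 0.0410 for Npas4 (-1.81 ± 0.24) and 0.0410 for Dusp1 (-1.20 ± 0.18). When each of the 6 libraries was left out of that fit in turn, Nr4a1 passed in 6 of 6 fits, Fos in 3, Dusp1 in 2 and Npas4 in 1. Their log2 fold changes stayed between -2.10 and -1.02. Among the 8 genes, Ivd passed in 1 of these 6 fits, Haus2 in 3 and Mfap1b in 4. Eif3j1, Eif3j2, Gm3650, Pcna-ps2 and Pla2g4e passed in 6 of 6. In DESeq2 on all 12 libraries, which made 29 calls or 0.141%, Fos, Nr4a1 and Dusp1 passed and Npas4 did not.

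Regulatory sequence is shown for these 4 genes because their levels were lower together. The sequences are the 250 bases before the annotated start, from RefSeq on GRCm38.p6, 5′ to 3′, with the half-site of the cyclic AMP response element, TGACG, in capitals on either strand (CGTCA is the other strand). That element is bound by CREB, an activator of immediate early genes. The windows are chr12:85473640-85473889 for Fos and chr15:101266596-101266845 for Nr4a1, both on the plus strand, and chr19:4989972-4990221 for Npas4 and chr17:26508473-26508722 for Dusp1, both on the minus strand.
Fos: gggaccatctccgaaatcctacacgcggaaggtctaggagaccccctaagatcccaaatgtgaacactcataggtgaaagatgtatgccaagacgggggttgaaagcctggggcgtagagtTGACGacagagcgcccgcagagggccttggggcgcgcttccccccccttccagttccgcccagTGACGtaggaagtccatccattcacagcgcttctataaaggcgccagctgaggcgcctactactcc
Nr4a1: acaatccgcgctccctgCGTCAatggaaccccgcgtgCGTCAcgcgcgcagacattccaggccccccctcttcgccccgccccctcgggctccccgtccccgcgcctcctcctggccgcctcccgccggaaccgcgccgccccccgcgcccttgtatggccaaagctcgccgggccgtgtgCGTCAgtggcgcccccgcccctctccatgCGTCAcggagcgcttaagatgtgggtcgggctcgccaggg
Npas4: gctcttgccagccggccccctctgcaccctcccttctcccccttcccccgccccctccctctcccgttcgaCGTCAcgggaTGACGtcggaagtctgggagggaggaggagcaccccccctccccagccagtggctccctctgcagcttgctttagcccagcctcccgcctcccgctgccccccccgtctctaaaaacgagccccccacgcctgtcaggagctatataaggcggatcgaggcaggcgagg
Dusp1: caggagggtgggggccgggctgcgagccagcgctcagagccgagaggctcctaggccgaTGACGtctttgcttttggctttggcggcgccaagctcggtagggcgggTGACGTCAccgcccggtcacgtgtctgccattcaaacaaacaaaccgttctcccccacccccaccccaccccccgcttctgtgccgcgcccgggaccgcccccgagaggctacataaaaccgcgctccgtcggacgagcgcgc

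The half-site TGACG occurred 2 times in the window of Fos, 4 times in that of Nr4a1, 2 times in that of Npas4 and 3 times in that of Dusp1, counting both strands and overlapping matches. It occurs in 17.8% of the 32851 promoter windows of this length. The full palindrome TGACGTCA, found in 1.55% of windows, was present 1 time in Dusp1 and in none of the others. The core of the downstream regulatory element, GTCA, occurred 2 times in Fos, 4 in Nr4a1, 3 in Npas4 and 4 in Dusp1. With 80.2% of all windows holding GTCA, and with TGAC, its other strand, inside TGACG, it does not set these genes apart. Of the 38 activity-regulated genes described next, 30 had promoter windows, 44 in all, and 21 of those genes held TGACG in at least 1 window. Counted by window, as for the shares above, TGACG occurred in 25 of the 44 (56.8%). TGACGTCA occurred in 5 of them (11.4%) and GTCA in 38 (86.4%). Another motif, the CArG box (CCWWWWWWGG, where W is A or T), occurred 0 times in the windows of Fos, Nr4a1, Npas4 and Dusp1. It was in 5 of the 44 windows of the list (11.4%) and in 1.47% of all windows. A match of letters is a description and not a measured binding site.

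A list of 38 activity-regulated genes, all of them tested, gave 27 log2 fold changes below 0 and 11 above, with a median of -0.29. Over all genes tested 49.6% were below 0 and the median was 0.00. In 13 of the 38, or 34.2%, all 3 knockout libraries lay below all 3 WT libraries, against 4.89% of all genes, and in 0 did they lie above, against 4.58%. Besides the 4 genes above these were Egr1, Egr2, Egr4, Junb, Btg2, Ccn1, Per1, Sik1 and Dusp6. Egr4, a zinc-finger factor, stood at 36.8, 67.7 and 44.4 CPM across the WT libraries, against 22.2, 16.3 and 21.1 CPM with the knockout (log2 fold change -1.32 ± 0.29). Egr1, a factor of the same family that is much used as a marker of plasticity, stood at 224, 206 and 209 CPM in the WT group, and with the knockout the level was 121, 67.4 and 84.6 CPM. The edgeR adjusted p of Egr4 and Egr1 was 0.449 and 0.775 with all 12 libraries, and 0.169 and 0.0721 with the 6. DESeq2 called Egr4 with all 12 (adjusted p 0.00324).

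The other part of the list ran apart between the knockout libraries. Nptx2, a pentraxin that clusters AMPA receptors, stood at 75.6, 40.6 and 76.9 CPM across the WT libraries, against 64.6, 39.6 and 342 CPM with the knockout. Bdnf, the neurotrophin, stood at 25.7, 18.8 and 28.2 CPM across the WT libraries, against 28.5, 19.9 and 62.8 CPM with the knockout. Inhba, the activin subunit, stood at 23 CPM in Kcnip3 KO 3 and at 1.57 to 6.49 CPM in the other 5 libraries. Kcnip3 KO 3 was thus the highest library for these 3 genes, while in the same library Fos, Egr1 and Npas4 were below all WT libraries. Arc, a synaptic protein of the immediate early class, stood at 477, 449 and 371 CPM in the WT group, and with the knockout the level was 199, 102 and 378 CPM, with Kcnip3 KO 3 inside the WT range. Without WT 3 and Kcnip3 KO-5xFAD 2 the median of the list was -0.13, with 21 below 0 and 17 above. It was -0.13 without Kcnip3 KO 2 and -0.51 without Kcnip3 KO 3.

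**Figure D4:**
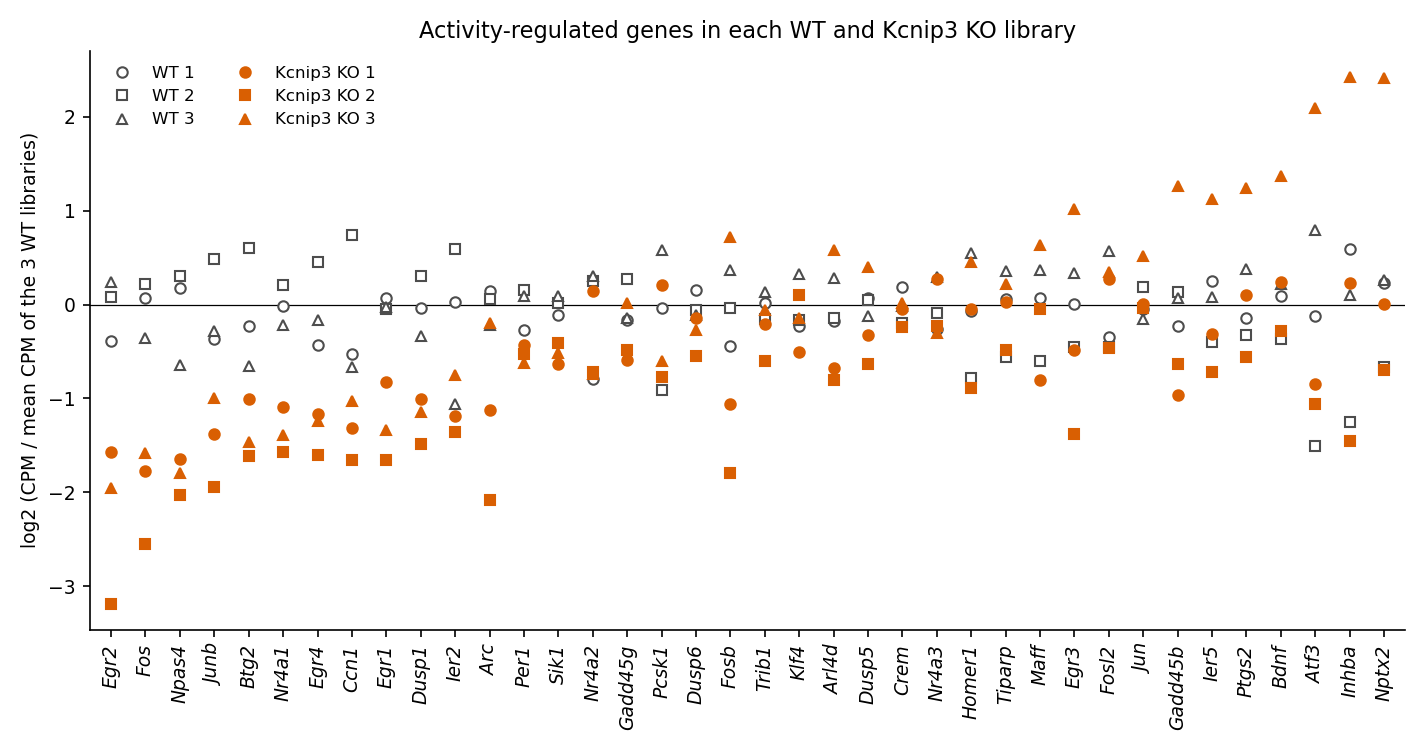
Level of each of the 38 activity-regulated genes in the 3 WT (open) and 3 Kcnip3 KO (filled) libraries, as log2 of the CPM over the mean CPM of the 3 WT libraries. Circles, squares and triangles are replicates 1, 2 and 3, and genes are ordered by log2 fold change. At the left, from Egr2 to Dusp1, the filled symbols lie below the open ones of the same gene, and at the right Kcnip3 KO 3 lies far above the other libraries for Inhba and Nptx2.

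In the transgenic background most of these values had the other sign. Of the 38, 33 had a log2 fold change above 0 between Kcnip3 KO-5xFAD and 5xFAD, against 49.2% of all genes, and the median was 0.25. Without Kcnip3 KO-5xFAD 2, which went against its label, 23 of 38 lay above 0 with a median of 0.10. Fos stood at 25.3, 7.66 and 11.2 CPM with the transgenes alone, against 38.3, 25.0 and 19.2 CPM with the knockout as well, so these groups overlapped, and Nr4a1 stood at 133, 70.9 and 76.8 CPM and at 157, 157 and 74.5 CPM. The interaction had an unadjusted edgeR p of 0.000645 for Fos, 0.00176 for Nr4a1, 0.00150 for Dusp1 and 0.00530 for Npas4, and an adjusted p of 0.853 for each.

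Genes reported as direct targets of KChIP3, which DREAM represses in the textbook account, lay mostly below 0 without the transgenes. Of 14 listed 13 were tested, and Pax8 did not pass the filter. A total of 9 lay below 0, as 49.6% of all genes did, and 4 above, with a median of -0.28. None was called by edgeR in the fit of 12 libraries. At an unadjusted edgeR p under 0.05 there, 0 of the 13 were higher, against 408 of all 15905 genes, and 4 were lower, against 310. With so few higher genes over the whole table, 0 of 13 says little. Fos, Junb, Nr4a1 and Npas4, which also belong to the activity list, were the 4 of 13, 30.8%, whose knockout libraries all lay below WT, against 4.89% of all genes. The median was -0.14 without Kcnip3 KO 2. Between the transgenic groups 8 of the 13 lay above 0, against 49.2% of all genes, with a median of 0.19. That median ran from -0.08 to 0.24 when 1 library was left out. Pdyn, the prodynorphin gene through which DREAM was first described, stood at 19, 16.3 and 22.2 CPM across the WT libraries, against 15.5, 17.2 and 19.6 CPM with the knockout, overlapping groups with a log2 fold change of -0.14 ± 0.27. Pdyn itself lies 2.16 Mb from Kcnip3 on chromosome 2. Slc8a3, a sodium-calcium exchanger, had a log2 fold change of 0.07 ± 0.17.

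The partners of KChIP3 at the membrane showed no call either. Apart from Kcnip3, the log2 fold changes of the 9 other genes of the KChIP and Kv4 list ran from -0.46 to 0.24, and the median of all 10 was -0.0036. Among the related calcium sensors Kcnip2 stood at 209, 187 and 147 CPM in the knockout libraries, a log2 fold change of -0.08 ± 0.17, and Kcnip4 at 45.5, 46.9 and 47.7 CPM in WT libraries and at 37.2, 44.1 and 49.8 CPM in knockout libraries. Kcnip1 gave 20.6 to 26.9 CPM and 22.0 to 34.7 CPM. The channel gene Kcnd2 stood at 34.9 to 36.2 CPM across WT libraries, against 34.3 to 38.7 CPM with the knockout, a log2 fold change of 0.04 ± 0.14. The groups overlapped in each of these. Only Dpp6, an auxiliary subunit, had all knockout libraries above WT, at 328 to 353 CPM against 281 to 326 CPM (log2 fold change 0.14 ± 0.11). That is 1 of the 10 genes (10%), against 4.58% of all genes.

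Most immune genes had values below 0. Of 37 interferon-response genes 35 lay below 0, with a median log2 fold change of -0.42, and in 8 all knockout libraries were below all WT libraries (21.6%, against 4.89% of all genes), and 0 were called by edgeR with 12 or with 6 libraries. Oasl2, an antiviral sensor, stood at 8.4, 6.59 and 7.21 CPM in the WT group, and with the knockout the level was 3.72 ± 0.32 CPM (SD, n = 3), with every library at or below 4.03 CPM. Usp18, which limits interferon signalling, stood at 4.36, 2.98 and 1.98 CPM across the WT libraries, against 1.46, 1.45 and 1.5 CPM with the knockout. The groups did not overlap in either gene, though for Usp18 the WT libraries spread over more than the gap between the groups. Without WT 3 and Kcnip3 KO-5xFAD 2 the median was -0.54, with 34 of 37 below 0. Between the transgenic groups 32 of the 37 lay above 0, with a median of 0.13. The median was -0.21 without WT 1, and between the transgenic groups it was -0.48 without Kcnip3 KO-5xFAD 1, 0.48 without Kcnip3 KO-5xFAD 2 and -0.06 without 5xFAD 2, so its sign there depended on single libraries.

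Complement and antigen presentation genes gave 23 of 24 below 0, with a median of -0.45 and 9 of 24 (37.5%, against 4.89% of all genes) with all knockout libraries below WT. Without WT 3 and Kcnip3 KO-5xFAD 2 the median was -0.42, with 21 of 24 below 0, and between the transgenic groups it was -0.33, or -0.04 without Kcnip3 KO-5xFAD 2. B2m, the light chain of class I molecules, stood at 115, 95.9 and 130 CPM across the WT libraries, against 65.1, 56.7 and 58.2 CPM with the knockout. It was called in the fit of the 6 libraries (log2 fold change -0.92 ± 0.13, edgeR adjusted p 0.0172) but not with all 12 (adjusted p 0.999), and in 3 of the 6 fits that left a library out. B2m lies on chromosome 2 as well, 5.30 Mb from Kcnip3. H2-K1, a class I heavy chain on chromosome 17, stood at 71.8, 62.0 and 65.1 CPM in the WT group, and with the knockout the level was 40.7, 48.4 and 44.8 CPM, groups that did not overlap (log2 fold change -0.57 ± 0.22, edgeR adjusted p 0.999). WT 3 was the highest library for C1qa (126 CPM, against 62.5 to 75.3 CPM in the other 5) but not for the class II genes, where H2-Aa stood at 10.8, 9.46 and 5.43 CPM across the WT libraries, against 3.68 to 4.71 CPM with the knockout. Markers of homeostatic microglia had a median of -0.09, which was 0.08 without WT 3, and summed to 444 to 618 CPM across WT libraries, against 444 to 494 CPM with the knockout. For plaque-associated microglia the median was -0.54 and became -0.05 without WT 3 and Kcnip3 KO-5xFAD 2.

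All 28 markers of myelin and mature oligodendrocytes had a log2 fold change above 0, against 50.4% of all genes, with a median of 0.48. In 1 of the 28, 3.57%, all knockout libraries lay above WT, against 4.58% of all genes, and none was called by edgeR. Myrf, the master transcription factor of myelination, stood at 65.2, 48.7 and 42.0 CPM across the WT libraries, against 61.8, 99.4 and 82.6 CPM with the knockout. Kcnip3 KO 1 lay within the WT range and the other 2 above it, and the sum of the list was 4907 to 7922 CPM across WT libraries, against 6374 to 11690 CPM with the knockout. Without WT 3 and Kcnip3 KO-5xFAD 2 the median was 0.30, with 25 of 28 above 0, and without Kcnip3 KO 2 it was 0.24. Between the transgenic groups the median was -0.06, and from -0.16 to 0.12 when 1 library was left out. Oligodendrocyte precursors had a median of 0.08, with Neu4 at 9.15 to 9.71 CPM across WT libraries, against 10.1 to 14.5 CPM with the knockout.

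Markers of tissue next to the hippocampus also moved between libraries. All 14 choroid plexus genes were above 0, with a median of 0.67. It became 0.18 without WT 3 and Kcnip3 KO-5xFAD 2 and 1.06 without WT 1. In 4 of the 14 (28.6%, against 4.58% of all genes) all knockout libraries lay above WT. The sum of the list was 248 to 4469 CPM across WT libraries, against 3777 to 5332 CPM with the knockout. Ttr alone gave 83.5 to 3764 CPM and 2890 to 4394 CPM. Between the transgenic groups all 14 lay below 0, with a median of -1.05, or -2.29 to -0.56 when 1 library was left out. Meningeal fibroblast genes gave 10 of 12 below 0 with a median of -0.50, or -0.31 without WT 1. In 3 of the 12 (25%, against 4.89% of all genes) all knockout libraries lay below WT, and 0 had an unadjusted p under 0.05, against 4.51% of all genes. The summed level was 1573 to 2389 CPM across WT libraries, against 994 to 1405 CPM with the knockout. Most of it came from Ptgds, with 1374 to 2056 CPM across WT libraries, against 810 to 1225 CPM with the knockout. The sum therefore says little about the other genes of the list. Between the transgenic groups 8 of the 12 lay above 0, with a median of 0.32, or -0.01 to 1.09 when 1 library was left out. Slc6a13, a transporter of the meninges, stood at 37.4, 31.1 and 26.4 CPM across the WT libraries, against 19.6, 19.6 and 7.02 CPM with the knockout. None of the markers of either tissue was at 0 in any of the 6 libraries. Their part in the results on immune genes and myelin was not tested.

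The medians of neuronal lists stayed near 0 without the transgenes. The 35 excitatory synapse and plasticity genes had a median of 0.01, with 16 below 0 and 19 above, the 20 of GABAergic neurons and receptors 0.04, and the 31 calcium channels, pumps and stores 0.07. Leaving out 1 library at a time gave medians of -0.03 to 0.10, -0.05 to 0.10 and 0.05 to 0.09 for these lists in that order. All knockout libraries lay above WT in 1 of the 35 (2.86%), 1 of the 20 (5%) and 4 of the 31 (12.9%), against 4.58% of all genes. Between the transgenic groups the 3 medians were 0.12, 0.20 and 0.19. Stx1a, a protein of vesicle release, stood at 256, 328 and 320 CPM in the WT group, and with the knockout the level was 225, 205 and 258 CPM. Gria1, an AMPA receptor subunit, stood at 443, 520 and 443 CPM across the WT libraries, against 595, 537 and 517 CPM with the knockout. Cacna1c, the main pore subunit of L-type calcium channels, stood at 62.4 to 72.3 CPM across WT libraries, against 76.6 to 94.0 CPM with the knockout (log2 fold change 0.32 ± 0.11, edgeR adjusted p 0.998). Of these, only Cacna1c had groups that did not overlap, and none was called.

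Markers of hippocampal fields lay mostly above 0. Granule neurons of the dentate gyrus gave 7 of 8 above 0 with a median of 0.35, which fell to 0.12 with 5 of 8 above 0 without WT 3 and Kcnip3 KO-5xFAD 2. Their sum was 104 to 145 CPM across WT libraries, against 140 to 167 CPM with the knockout. Prox1, the factor that defines granule cells, stood at 15.4, 16.2 and 13.8 CPM across the WT libraries, against 20.8, 26.1 and 34.9 CPM with the knockout (log2 fold change 0.85 ± 0.37, edgeR adjusted p 0.999). Pyramidal neurons of CA1, CA2 and CA3 gave 10 of 15 above 0 with a median of 0.18, against 12 of 15 and a median of 0.08 without WT 3 and Kcnip3 KO-5xFAD 2, and a median of 0.08 without Kcnip3 KO 2. Of the 10 tested genes of adult neurogenesis 7 lay below 0, with a median of -0.20 that was 0.01 without WT 1 and -0.06 without Kcnip3 KO 3. Between the transgenic groups the list went the other way, with 9 of the 10 above 0, against 49.2% of all genes. The median there was 0.55, and 0.31 to 0.71 when 1 library was left out. Dcx, a marker of young neurons, stood at 19, 18.0 and 19.5 CPM in the WT group, and with the knockout the level was 17.5, 11.5 and 10.01 CPM. The groups did not overlap for Prox1 or Dcx, and neither was called. All knockout libraries lay above WT in 2 of the 8 granule neuron genes (25%) and 1 of the 15 pyramidal neuron genes (6.67%), against 4.58% of all genes. In 3 of the 10 neurogenesis genes (30%) all knockout libraries lay below WT, against 4.89% of all genes.

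**Figure D5:**
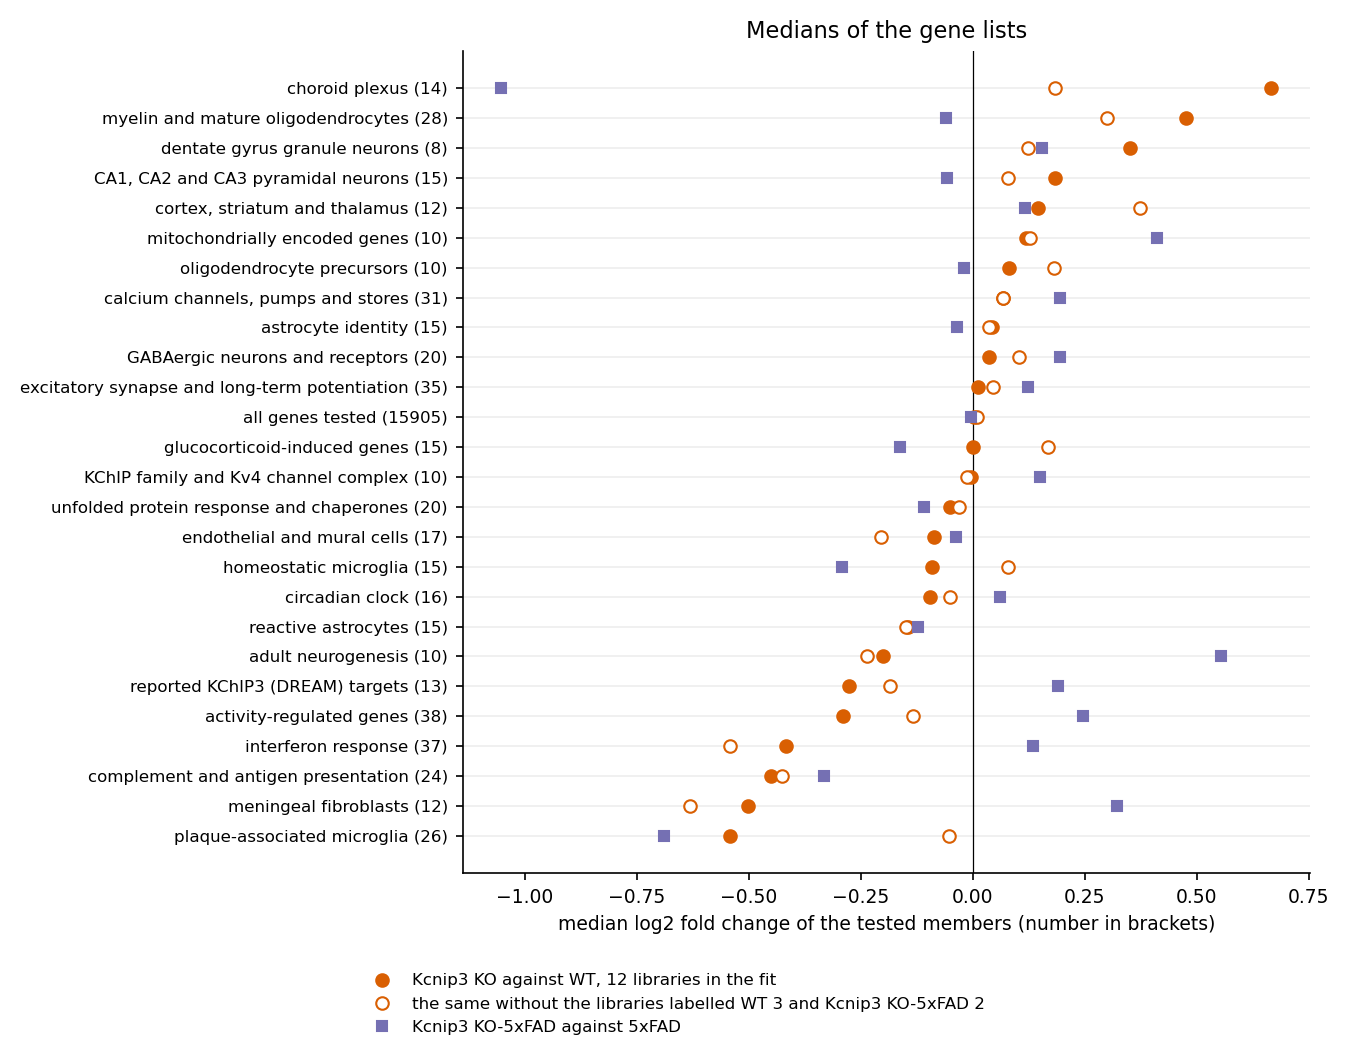
Median log2 fold change of the tested members of each gene list (number tested in brackets), for Kcnip3 KO against WT with all 12 libraries in the fit (filled circles), the same without WT 3 and Kcnip3 KO-5xFAD 2 (open circles), and Kcnip3 KO-5xFAD against 5xFAD (squares). The median of choroid plexus genes moves from 0.67 to 0.18 and that of plaque-associated microglia from -0.54 to -0.05 between the circles, while that of complement and antigen presentation moves from -0.45 to -0.42. Myelin genes have a median of 0.48 without and -0.06 with the transgenes.

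Other large differences were seen in pseudogenes and in genes of low level. Gm12892, a pseudogene with 45.2% of its 31-base words in Ckb, a brain creatine kinase, stood at 5.21, 5.85 and 2.92 CPM across the WT libraries, against 29.1, 48.8 and 42.6 CPM with the knockout. It was called in the fit of the 6 libraries and in all 6 fits that left one of them out (log2 fold change 3.10, edgeR adjusted p 0.00139), but not by edgeR with 12 (adjusted p 0.775), where DESeq2 called it (adjusted p 0.0420). Between the transgenic groups only Kcnip3 KO-5xFAD 3, at 40.5 CPM, was high, and the other 5 libraries stood at 4.45 to 6.66 CPM. Gm3375, a pseudogene with 70.0% of its words in Psmb5, a proteasome subunit, stood at 0.106, 0.638 and 0.627 CPM across the WT libraries, against 19.6, 45.5 and 1.61 CPM with the knockout. In the transgenic groups Gm3375 stood at 0.634 to 1.13 CPM with the transgenes alone, against 31.2, 58.2 and 2.09 CPM with the knockout as well, so that 4 of the 6 libraries with the knockout were high. DESeq2 called it without the transgenes (adjusted p 0.0106) and edgeR did not (adjusted p 0.998). Psmb5 itself stood at 121, 140 and 110 CPM across the WT libraries, against 93.7, 75.5 and 134 CPM with the knockout. Psmb5 and Gm3375 together gave 111 to 141 CPM and 113 to 135 CPM, overlapping groups with a ratio of knockout to WT means of 0.992. The groups also overlapped for Ckb and Gm12892 together, with a ratio of 0.864. Because of the shared words the level of each pseudogene alone is uncertain. Cda, for cytidine deaminase, stood at 1.60, 2.87 and 1.98 CPM in the WT group, and with the knockout the level was 3.03, 5.68 and 8.17 CPM, and Nhlh2, a neuronal basic helix-loop-helix factor, at 0.313 to 0.744 CPM and 0.836 to 2.42 CPM. Neither Cda nor Nhlh2 was called, and their log2 fold changes in the transgenic background were 0.09 and 0.21.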

How the data were processed

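Polyadenylated RNA of 12 hippocampal libraries was sequenced, 3 for each of 4 genotypes. The deposited table holds raw read counts per gene, made by the authors with HISAT2 2.1.0 and featureCounts on mm10 after FastQC 0.11.9, with R 4.2.1 and edgeR 3.38.4 also named, per the submitters' processing notes. Strand setting, gene annotation and handling of reads with several matches were not given in the sources used here. A deposited table of log2 TPM values, made by the authors with an offset that is not stated, was used as it stands for 1 alternative only.

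Counts were tested with edgeR 4.0.16 in R 4.3.3 (filterByExpr by genotype, TMM scaling, robust quasi-likelihood fit of all 12 libraries), and called at a Benjamini-Hochberg adjusted p under 0.05. Alternatives used DESeq2 1.42.0 and limma 3.58.1. The 6 libraries held 8118037 to 9403798 counts, and intervals and floors cover counting error only. Positions and transcripts are GRCm38, the assembly also called mm10. Genes named are Kcnip3, App, Thy1, Trem2, Cst7 and Gfap, every called gene and its copies, and genes drawn from the 4 of each list and the 6 near Kcnip3 with the smallest p, and from the largest changes among uncalled genes at a mean of at least 1 CPM. Others, the zinc-finger genes among them, were chosen after their values were seen. The members and gene lists were chosen with earlier results of these data known. Count tests were tested on simulated data. Genes without annotation, holding 0.00278% of counts, stayed out of the tests.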

Additional observations from a re-analysis of the deposited data

How the results depend on the processing

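With the 4 higher and 4 lower genes of the fit of 12 libraries as base, 203 and 121 were called with no filter on low counts, and 10 and 19 with DESeq2. With only the groups compared the lower genes numbered 10. Leaving out 1 library at a time gave 4 to 5 higher and 3 to 9 lower genes with all groups in the fit, and 5 to 10 higher and 3 to 16 lower genes with only those compared. The 11 genes called between Kcnip3 KO-5xFAD and 5xFAD became 351 with no filter, 7 with a stricter filter, 29 with DESeq2, 6 without WT 3 and Kcnip3 KO-5xFAD 2, and 6 to 12 when 1 library was left out. The interaction, with 0 genes called by edgeR and 836 at an unadjusted p under 0.05, gave 272 with no filter, 3 with DESeq2, 1 without those 2 libraries and 0 to 4 without 1 library. The log2 fold change of Kcnip3 passed the threshold at -0.88 with no filter and with DESeq2 and at -1.24 without WT 3, Kcnip3 KO-5xFAD 2 and Kcnip3 KO 3, and ranged from -1.25 to -0.70 without 1 library. The cause of these shifts was not tested.

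Some small log2 fold changes of uncalled genes turned direction when 1 library was left out. With all groups in the fit they ranged from -0.0195 to 0.0336 for App, -0.294 to 0.0345 for Selplg, -0.0379 to 0.322 for P2ry12, -0.00472 to 0.472 for S100b, -0.0202 to 0.442 for mt-Co3, -0.0215 to 0.413 for Hsph1, -0.0047 to 0.553 for Pcp4, -0.0453 to 1.14 for Sox11, -0.0722 to 0.115 for Mfap1a and -0.285 to 0.555 for Gfap. With only the groups compared the values that turned were -0.0123 for App, 0.038 for Selplg, -0.0367 for P2ry12, -0.00182 for S100b, -0.0178 for mt-Co3, -0.0219 for Hsph1, -0.0020 for Pcp4, -0.0438 for Sox11, -0.0643 for Mfap1a and -0.103, -0.166 and -0.287 for Gfap. Without WT 3 and Kcnip3 KO-5xFAD 2, Selplg was at 0.0343, and without Kcnip3 KO 3 as well Selplg was at 0.0549, Npy at -0.0726 and Ddit4 at 0.0374.

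With the replicate block 4 genes were higher and 4 lower, 10 were called between the transgenic groups and 1 in the interaction, and Kcnip3 was at -0.91. Same-numbered WT and Kcnip3 KO libraries had correlations of -0.195, 0.0759 and -0.0640 in their deviations, so the numbers were not taken to pair them. The fits of the 6 libraries that left 1 out were chosen after seeing the data. At this depth 3 counts in a library correspond to 0.319 to 0.370 CPM.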
